A study of Homo sapiens with 4 samples.

Results

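The genes described here encode the receptors for glutamate, GABA and glycine other than the AMPA type. They were taken by symbol from the count table: GRIN1, GRIN2A to GRIN2D, GRIN3A and GRIN3B (NMDA receptors), the numbered GRIK genes (kainate receptors), GRID genes (delta receptors) and GRM genes (metabotropic glutamate receptors), the GABR genes of the A, B, D, E, G, P, Q and R subunit classes (GABA-A receptors), and GLRA and GLRB genes (glycine receptors). This gave 46 of the 60612 genes in the table. Values are given for 41 of them, made up of 16 GABA-A, 7 metabotropic glutamate, 7 NMDA, 5 kainate and 5 glycine receptor genes and GRID1, and every count of receptor genes here is over these 41. Of the 41, 28 had at least 10 raw counts summed over the 4 libraries, 10 had between 1 and 9, and GABRD, GABRR3 and GRM5 had 0. RNAseq was made from IMR-32, a human neuroblastoma line that carries MYCN amplification, in which the study asked how the neurogenic transcription factor NeuroD1 drives proliferation. Cells were stably transduced with a hairpin RNA switched on by doxycycline. By the sample titles this was a control sequence in the shControl group (2 libraries, genotype field WT) and a sequence against NeuroD1 in the shNeuroD1 group (2 libraries), and both groups received 1 µg/mL doxycycline for 48 h. The study's text calls the control cells of this RNAseq parental, while its figure legends name a negative control hairpin. With parental controls, an effect of transduction could not be told apart from NeuroD1 loss. Tables of the study name both knockdown libraries as repeats of a single hairpin. Their titles are numbered 1 and 2, as are the study's 2 hairpins against NeuroD1, but the control titles are numbered alike. With a single hairpin, an effect of that hairpin alone cannot be told apart from an effect of NeuroD1 loss. With 2 hairpins, the spread between the knockdown libraries would include the difference between hairpins. Whether libraries within a group came from separate cultures is not stated, so p-values measure the spread between these libraries, which may be technical.

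Receptors of the NMDA, kainate and delta classes are glutamate-gated ion channels built of several subunits, and the metabotropic glutamate receptors are G protein-coupled receptors that act as dimers. NMDA receptors need GluN1, the product of GRIN1, together with GluN2 or GluN3 subunits, which set the kinetics and the agonist needs of the channel. GABA-A and glycine receptors are chloride channels of the pentameric ligand-gated family. The common synaptic GABA-A receptor holds alpha, beta and gamma subunits. Whether GABA excites or inhibits a cell follows the chloride gradient, and GABA is known to depolarize immature neurons.

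The libraries held 14665210 to 16482463 counts. NEUROD1, the targeted gene, stood at 418.9 and 414.5 CPM (counts scaled to library size, with edgeR's TMM factors) in shControl and at 63.7 and 58.2 CPM in shNeuroD1. Its log2 fold change was -2.77 with an SE of 0.0504 (edgeR adjusted p 8.59e-29), lower in both knockdown libraries than in both controls. All 8 noradrenergic neuroblastoma markers examined were detected, with a summed level of 1972 to 1995 CPM in shControl and 1572 to 1602 CPM in shNeuroD1. The 3 Schwann cell markers reported (SOX10, S100B and FOXD3) summed to 1.26 to 2.10 CPM in shControl and 2.63 to 2.82 CPM in shNeuroD1, with FOXD3 at 0 counts. The 5 fibroblast or mesenchymal markers summed to 44.6 to 49.2 CPM in shControl and 35.1 to 37.9 CPM in shNeuroD1, and the 3 astrocyte markers to 1.63 to 2.14 and 1.18 to 1.31 CPM. Single markers moved in both directions. S100B of the Schwann cell list had a log2 fold change of 1.10 (edgeR adjusted p 0.0476), and SOX10 had 8 to 17 counts in each library. Of the fibroblast list COL1A1 was lower (-0.94, edgeR adjusted p 6.91e-11), PDGFRB (0.64, edgeR adjusted p 0.000144) and LUM (1.62, edgeR adjusted p 0.000407) were higher, and COL1A2 and DCN had at most 5 counts in a library. Of the astrocyte list GFAP and AQP4 had at most 3 counts and ALDH1L1 did not pass. The part of these shifts in the receptor results was not tested, and fewer cells expressing a gene cannot be told apart from less RNA per cell in such bulk libraries.

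Receptor genes changed in both directions after NeuroD1 knockdown. Of the 41 genes, 22 had enough counts to be tested across all genes in edgeR, 8 of these were higher and 6 lower after knockdown by an adjusted p under 0.05, and 8 did not pass. The share called among the tested receptor genes was 63.6%, against 55% of all 17537 genes tested, where 26.8% were higher and 28.2% lower. The difference between these shares was not tested. Changes of over 2-fold were found in 4 higher receptor genes (GABRG1, GRIN1, GRM4 and GRID1) and 3 lower ones (GRIN2D, GABRQ and GRIN3A), while 8.79% of all genes tested were higher and 5.14% lower by this rule. GABRG1 is in these counts although it entered the test only through the shNeuroD1 libraries, where it is high. The median log2 fold change was 0.078 over the 22 receptor genes and 0.01 over all genes tested, and the former was -0.078 over the 18 receptor genes whose mean reached 1 CPM. DESeq2 called 6 receptor genes higher and 6 lower, without GRIN2C and GABRG1. Over all 17537 genes it called 6969, against 9637 in edgeR. Scaling by library size alone shifted the median of all genes to 0.12 and left the receptor counts at 8 higher and 6 lower. With that scaling 9753 of all genes were called. The plot of log2 fold changes gives them by family.

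**Figure D1:**
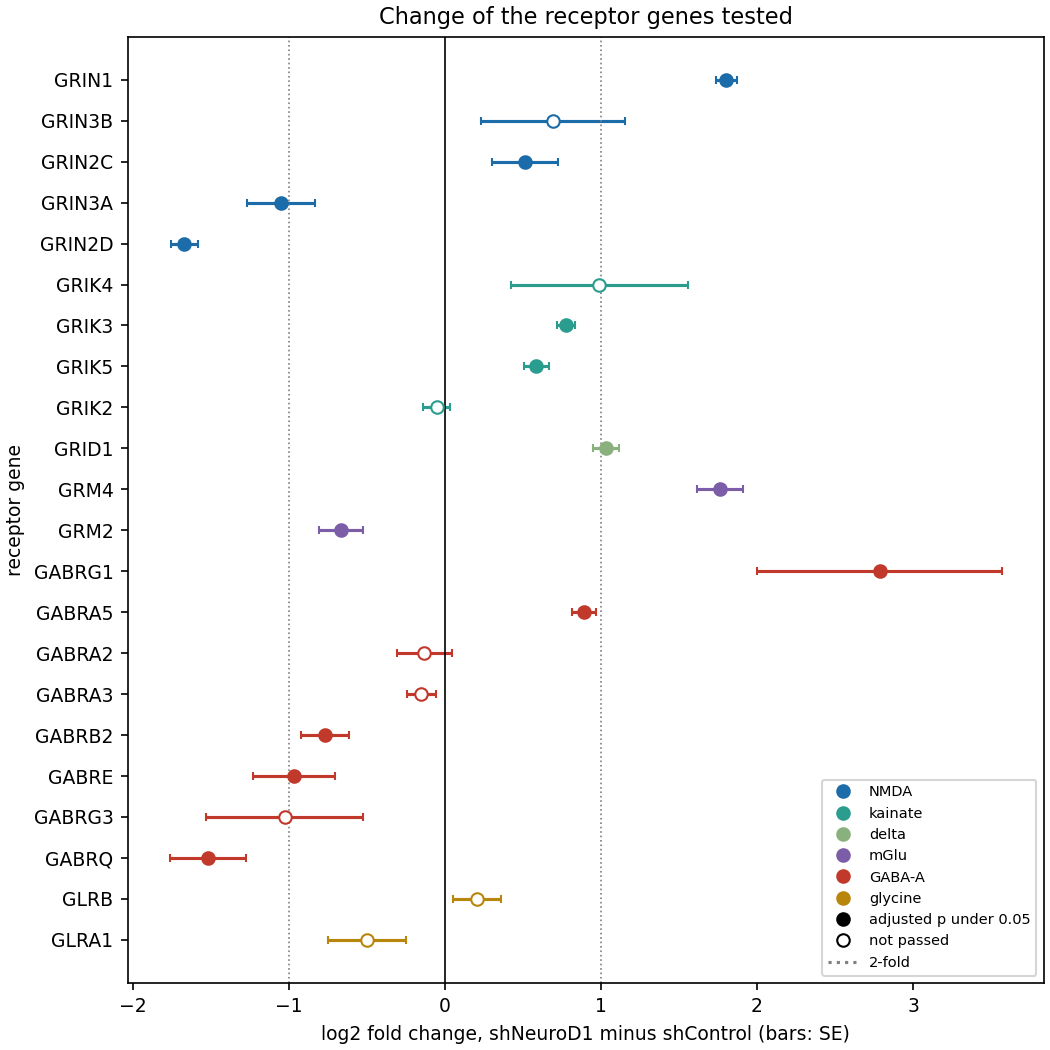
Log2 fold change (shNeuroD1 minus shControl, horizontal axis) of the 22 receptor genes tested, coloured by family, with bars of 1 SE. Filled points passed an adjusted p of 0.05 and open points did not, and the values run from -1.67 for GRIN2D to 2.79 for GABRG1.

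The NMDA receptor genes showed opposite changes of the obligatory subunit and its main partner. GRIN1, which encodes GluN1 (ENSG00000176884, GRCh38 chromosome 9, 137138390 to 137168762, plus strand), was at 26.6 and 25.6 CPM in shControl and at 90.0 and 92.0 CPM in shNeuroD1. Both knockdown libraries lay far above both controls. The log2 fold change was 1.80 with an SE of 0.0661 (edgeR adjusted p 5.44e-21), a 3.49-fold rise. GRIN1 shares 5 exon bases with LRRC26 on the opposite strand, which had 87 counts in all. GRIN2D, which encodes GluN2D, the slowly deactivating subunit typical of the developing brain (ENSG00000105464, chromosome 19, 48394875 to 48444931, plus strand), was at 49.6 and 55.1 CPM in shControl and at 15.3 and 17.7 CPM in shNeuroD1. Its groups did not overlap either, and the log2 fold change was -1.67 with an SE of 0.0872 (edgeR adjusted p 5.68e-17), which is 3.18-fold lower. GRIN3A, whose GluN3A subunit lowers calcium permeability, went from 5.56 and 5.86 CPM to 2.43 and 3.09 CPM. It was lower by a log2 fold change of -1.05 with an SE of 0.216 (edgeR adjusted p 0.000118). GRIN2C, the GluN2C gene, had 54 and 55 counts in the controls against 69 and 86 after knockdown. This rise of 0.52 on the log2 scale with an SE of 0.21 (edgeR adjusted p 0.038) was lost in several other fits, with an adjusted p of 0.217 in DESeq2 and of 0.149, 0.194 and 0.302 in edgeR without shControl replicate 1, shControl replicate 2 and shNeuroD1 replicate 2. GRIN3B had 14 and 7 counts in the controls against 16 and 18 after knockdown, with a log2 fold change of 0.69 that did not pass (SE 0.462, edgeR adjusted p 0.209). Its exons share 85 bases with TMEM259 on the opposite strand, which held 7966 counts in all, and since the use of strand in counting is not stated the GRIN3B value is uncertain. GRIN2A and GRIN2B, the GluN2 genes that dominate the adult forebrain, had at most 3 counts in any library.

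**Figure D2:**
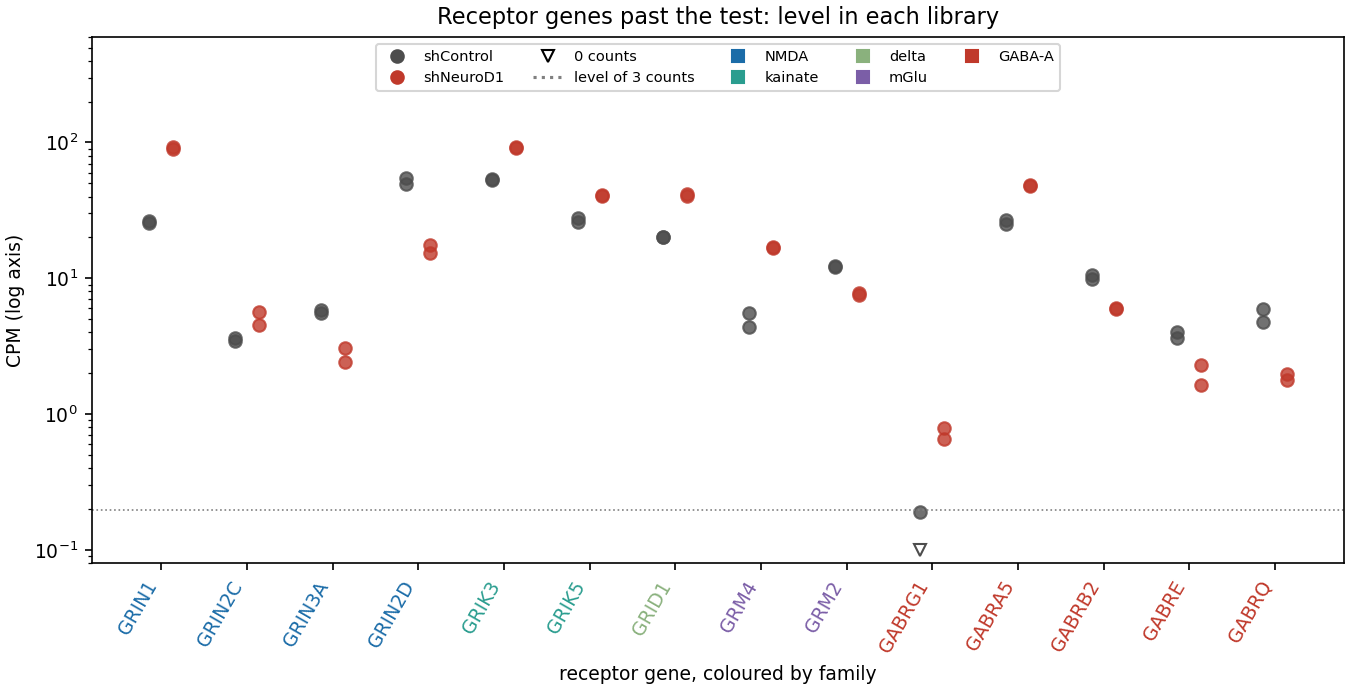
Level in CPM (vertical log axis) of the 14 receptor genes past the test, with 1 point per library, grey for shControl and red for shNeuroD1, and gene names coloured by family. The dotted line marks the level of 3 counts, and the open triangle a library at 0 counts for GABRG1. The groups do not overlap in any gene shown, but these genes were picked by the test. With 2 libraries against 2, the smallest two-sided exact permutation p is 0.333. The share of all genes without overlap was not computed.

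Splicing of GRIN1 was examined next. The deposited event tables give FPKM values (fragments scaled for length and library size) of transcripts that include or skip an exon. Of the GRIN1 exons listed in both forms, a pair is printed here because these code for well known variants of GluN1: the N1 cassette, in the extracellular part, which alters proton sensitivity, and the C1 cassette, in the intracellular tail, which holds an endoplasmic reticulum retention motif. Capitals mark the cassette and lower case the 15 bases of the neighbouring exons on each side, as joined in GENCODE release 29 transcripts on GRCh38, plus strand.
N1 cassette, chr9:137148152-137148214: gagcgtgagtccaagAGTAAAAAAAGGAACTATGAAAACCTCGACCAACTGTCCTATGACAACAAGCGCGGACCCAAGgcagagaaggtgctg
C1 cassette, chr9:137165186-137165296: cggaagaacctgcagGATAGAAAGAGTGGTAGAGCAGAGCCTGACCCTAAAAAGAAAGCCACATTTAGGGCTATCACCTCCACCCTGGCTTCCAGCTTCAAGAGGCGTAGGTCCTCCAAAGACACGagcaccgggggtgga
These exons are 63 and 111 bases long, both a whole number of codons.

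The N1 cassette was included in 61.1% and 43.6% of the FPKM of the GRIN1 transcripts that could hold it in shControl, and in 50.5% and 59.7% in shNeuroD1. These groups overlapped, so the rise of GRIN1 came with no difference in N1 inclusion larger than the spread between libraries. The included form stood at 1.10 to 1.23 FPKM in shControl and 5.25 to 6.65 FPKM in shNeuroD1, and the skipped form at 0.782 to 1.42 and 3.54 to 6.52 FPKM, so neither form overlapped between groups. The C1 cassette was included in 83.3% and 5.70% in shControl and in 50.5% and 42.8% in shNeuroD1. The control libraries spanned the knockdown libraries on both sides, so C1 inclusion could not be compared. The reads behind these FPKM values are unknown, and no test was made on them.

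Among kainate receptor genes GRIK3 and GRIK5 rose, while GRIK2 and GRIK4 did not pass. GRIK3, which encodes the low-affinity subunit GluK3 (ENSG00000163873, chromosome 1, 36795527 to 37034129, minus strand), was at 52.9 and 53.8 CPM in shControl and at 92.4 and 90.6 CPM in shNeuroD1. The groups were apart, with a log2 fold change of 0.78 and an SE of 0.0576 (edgeR adjusted p 3.69e-13). In limma on FPKM summed over starts it no longer passed, with a similar change of 0.89 on the log2(FPKM + 1) scale (limma adjusted p 0.102) and 1.19 on the log2(FPKM + 0.1) scale (limma adjusted p 0.103). GRIK5, which encodes GluK5, a high-affinity subunit that forms channels only with GluK1 to GluK3, was at 28.0 and 25.8 CPM in shControl and at 40.03 and 40.7 CPM in shNeuroD1 (log2 fold change 0.59, SE 0.079, edgeR adjusted p 1.53e-07). GRIK2, which encodes GluK2, was at 29.1 and 26.6 CPM in shControl and at 26.1 and 27.6 CPM in shNeuroD1. Its groups overlapped, and its log2 fold change of -0.05 with an SE of 0.0868 (edgeR adjusted p 0.644) was smaller than its error. GRIK4, the other high-affinity subunit gene, had 9 and 3 counts in the controls against 12 and 12 after knockdown. GRIK4 too entered the test only through the shNeuroD1 libraries, where it is high. Its log2 fold change of 0.99 with an SE of 0.566 (edgeR adjusted p 0.14) did not pass. The change depended on the control library, at 2.02 without shControl replicate 1 and 0.36 without shControl replicate 2. GRIK1 had 8, 5, 2 and 1 counts in the 4 libraries, was not tested, and shares 45 exon bases with BACH1 on the opposite strand.

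The delta receptor gene GRID1 rose. GRID1 encodes GluD1, which glutamate does not open as a channel and which organizes synapses by binding cerebellins (ENSG00000182771, chromosome 10, 85599555 to 86366493, minus strand). It was at 20.01 and 20.2 CPM in shControl and at 41.7 and 40.5 CPM in shNeuroD1, with a log2 fold change of 1.03 and an SE of 0.0826 (edgeR adjusted p 2.22e-12). Replicates differed far less than the groups. In limma on FPKM its call was lost, at 0.88 on the log2(FPKM + 1) scale (limma adjusted p 0.0789) and 1.1005 on the log2(FPKM + 0.1) scale (limma adjusted p 0.0843).

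In the metabotropic family GRM4 rose and GRM2 fell. GRM4 encodes mGlu4, a group III receptor that couples to inhibitory G proteins (ENSG00000124493, chromosome 6, 34018645 to 34155622, minus strand). It was at 4.41 and 5.54 CPM in shControl and at 17.1 and 16.8 CPM in shNeuroD1, a 3.39-fold rise (log2 fold change 1.76, SE 0.146, edgeR adjusted p 5.42e-12). GRM2 encodes mGlu2, a group II receptor that also couples to inhibitory G proteins (ENSG00000164082, chromosome 3, 51707070 to 51718613, plus strand). It was at 12.3 and 12.0 CPM in shControl and at 7.82 and 7.49 CPM in shNeuroD1 (log2 fold change -0.67, SE 0.14, edgeR adjusted p 0.000151). GRM8 had 1 and 3 counts in the controls against 11 and 7 after knockdown and was below the limit for testing. GRM3, GRM6 and GRM7 had at most 4 counts in a library.

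Among the 16 GABA-A receptor genes, 8 were tested, of which 2 were higher, 3 lower and 3 did not pass. The share called was 62.5%, near the 55% of all genes tested. The higher genes were GABRG1 and GABRA5. GABRG1, a gamma subunit gene (ENSG00000163285, chromosome 4, 46035769 to 46124081, minus strand), was nearly silent in the controls. It had 0 and 3 counts there against 10 and 12 after knockdown, so it passed the filter on low counts through the shNeuroD1 libraries alone. Summed over libraries, 22 counts against 3 gave a ratio of 7.38 with an exact 95% interval of 2.22 to 38.5 that covers counting error only. It passed in edgeR (adjusted p 0.00323) but not in DESeq2 (adjusted p 0.0575) nor in edgeR without the filter on low counts (adjusted p 0.0534), and its fitted log2 fold change of 2.79 became 6.46 without shControl replicate 2, which leaves a control at 0 counts, and 1.89 without shControl replicate 1 (edgeR adjusted p 0.0483). GABRA5, whose alpha5 subunit is found mostly outside synapses (ENSG00000186297, chromosome 15, 26866363 to 26949207, plus strand), was at 26.8 and 25.1 CPM in shControl and at 48.3 and 47.8 CPM in shNeuroD1. The groups were well apart, with a log2 fold change of 0.89 and an SE of 0.0761 (edgeR adjusted p 1.01e-11).

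The 3 lower genes were GABRQ, GABRE and GABRB2. GABRQ, the theta subunit gene (ENSG00000268089, chromosome X, 152638183 to 152657534, plus strand), had 70 and 95 counts in the controls against 30 and 27 after knockdown. In CPM this was 4.75 and 5.98 against 1.97 and 1.77, which is 2.87-fold lower (log2 fold change -1.52, SE 0.243, edgeR adjusted p 3.14e-06). GABRE, the epsilon subunit gene, had 54 and 64 counts in the controls against 25 and 35 after knockdown, with a log2 fold change of -0.96 and an SE of 0.263 (edgeR adjusted p 0.00239). GABRE no longer passed without shControl replicate 1 (edgeR adjusted p 0.0592) or shControl replicate 2 (edgeR adjusted p 0.0835), where the fold stayed at -1.03 and -0.89. GABRB2, which encodes the beta2 subunit, was at 10.6 and 9.82 CPM in shControl and at 6.05 and 5.91 CPM in shNeuroD1 (log2 fold change -0.77, SE 0.155, edgeR adjusted p 8.76e-05). All 3 had knockdown libraries below both control libraries.

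The other 3 GABA-A receptor genes tested did not pass. GABRA3, the alpha3 subunit gene, was at 26.4 and 26.5 CPM in shControl and at 22.1 and 25.6 CPM in shNeuroD1, with a log2 fold change of -0.15 and an SE of 0.0919 (edgeR adjusted p 0.172). GABRA2, the alpha2 subunit gene, was at 6.38 and 7.68 CPM against 5.65 and 7.22 CPM, and GABRG3, a gamma subunit gene, had 13 and 18 counts in the controls against 10 and 5 after knockdown. Their edgeR adjusted p-values were 0.556 and 0.0834, and the groups of GABRA2 overlapped. Of the 8 genes not tested, GABRR2, a rho subunit gene, had 6 to 10 counts in each library, GABRB1 had 0 to 5, GABRA4, GABRA6, GABRP and GABRR1 had at most 2, and GABRD and GABRR3 had 0, which allows up to 0.204 CPM in shControl replicate 1, where a count is worth most.

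Many GABA-A receptor genes lie in clusters of several subunit genes side by side. The clusters on chromosomes 4 and X are shown, where neighbours in a cluster did not all share a call, although differences between neighbours were not tested. On chromosome 4 GABRG1 was higher and GABRA2 did not pass, and GABRA4 and GABRB1 had too few counts. On chromosome X GABRE and GABRQ, at the ends of the cluster, were both lower, and GABRA3 between them did not pass. GABRE, GABRA3 and GABRQ are the genes of that cluster, and their log2 fold changes of -0.96, -0.15 and -1.52 all had the same sign.

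**Figure D3:**
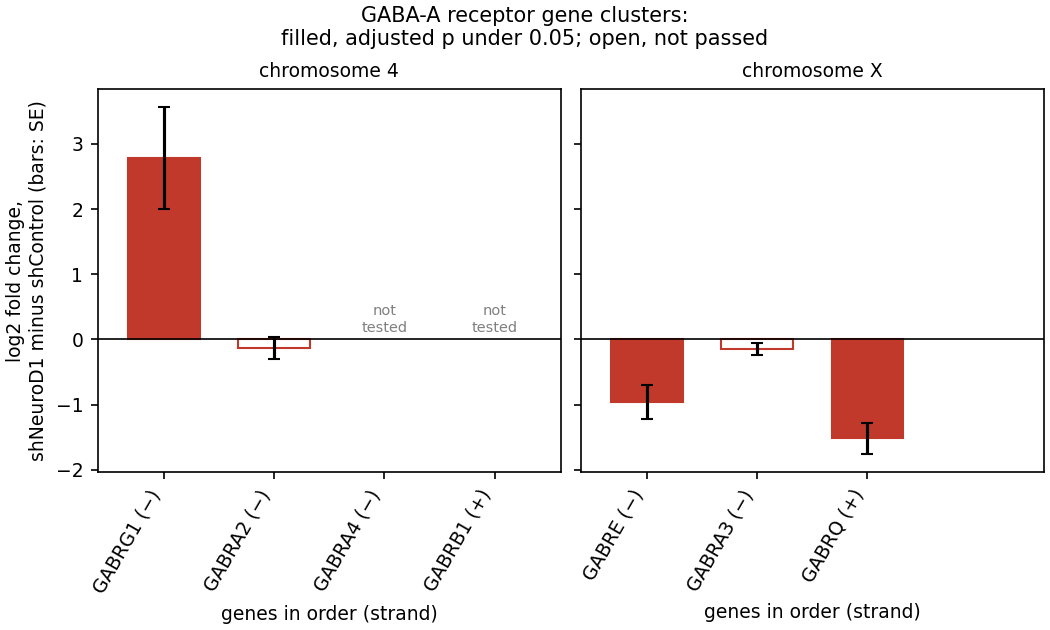
Log2 fold change (vertical axis, shNeuroD1 minus shControl, bars of 1 SE) of the GABA-A receptor genes of the clusters on chromosomes 4 and X in their order along the chromosome, with the strand beside each name. Filled bars passed an adjusted p of 0.05 and open bars did not, and each cluster holds at least 1 gene past the test beside at least 1 that was not.

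Neither glycine receptor gene tested passed. GLRB, whose beta subunit anchors the receptor to gephyrin, was at 7.80 and 7.18 CPM in shControl and at 8.61 and 8.67 CPM in shNeuroD1 (log2 fold change 0.21, SE 0.153, edgeR adjusted p 0.26). GLRA1, the alpha1 subunit gene, had 53 and 55 counts in the controls against 37 and 39 after knockdown, with a log2 fold change of -0.50 and an SE of 0.248 (edgeR adjusted p 0.0901). In both genes the groups did not overlap, but neither difference passed the test across all genes. GLRA1 shares 441 exon bases with AC091982.2 on the opposite strand, a gene with 21 counts in all. GLRA2 had 2 to 5 counts in each library, GLRA4 had 0 to 5, and GLRA3 had 1 count in 1 library.

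Levels were then compared between genes as CPM per kb of exon, taking the union of all annotated exons of a gene as its length, so that a gene with long rarely used exons is understated. In shControl GRIN2D stood at 10.3, GABRA3 at 6.31, GABRA5 at 6.24, GRIK5 at 5.37, GRIK3 at 5.28, GRIN1 at 3.88 and GRIK2 at 3.67 CPM per kb. GABRA3 and GABRA5 overlapped in their libraries, as did GRIK5 and GRIK3, and GRIN1 and GRIK2, so these orders are not meaningful. In shNeuroD1 GRIN1 stood at 13.5, GABRA5 at 11.6, GRIK3 at 9.05, GRIK5 at 8.05, GRID1 at 6.94 and GABRA3 at 5.69 CPM per kb, with no overlap between neighbours in this order. Among the 22 genes in this comparison GRIN1 thus went from the 6th to the 1st place, and GRIN2D from the 1st to the 8th with 3.24 CPM per kb, where it overlapped GRIK2 at 3.54.

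The subunit make-up differed between the groups in several families. Per length, GRIN1 stood at 0.355 and 0.315 times the sum of the GRIN2 and GRIN3 genes in shControl and at 3.21 and 2.80 times that sum in shNeuroD1. GluN1 transcripts were thus outnumbered by those of their partners in both control libraries and exceeded them in both knockdown libraries. GRIN2D nevertheless made up most of the GRIN2 transcripts in every library, with 95.8% and 96.4% in shControl and 84.9% and 83.8% in shNeuroD1. GABRA5 stood at 1.02 and 0.954 times the level of GABRA3 in shControl and at 2.21 and 1.88 times in shNeuroD1. GRIK3 stood at 1.36 and 1.52 times the level of GRIK2 in shControl and at 2.65 and 2.46 times in shNeuroD1. GRM4 went from 0.156 and 0.201 times the level of GRM2 to 0.951 and 0.978 times. Summed over a family, kainate genes stood at 14.1 to 14.9 CPM per kb in shControl and 20.7 to 20.8 in shNeuroD1, and glycine genes at 3.58 to 3.95 and 3.59 to 3.63, where the groups overlapped. These shares are given as descriptions, with no test.

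**Figure D4:**
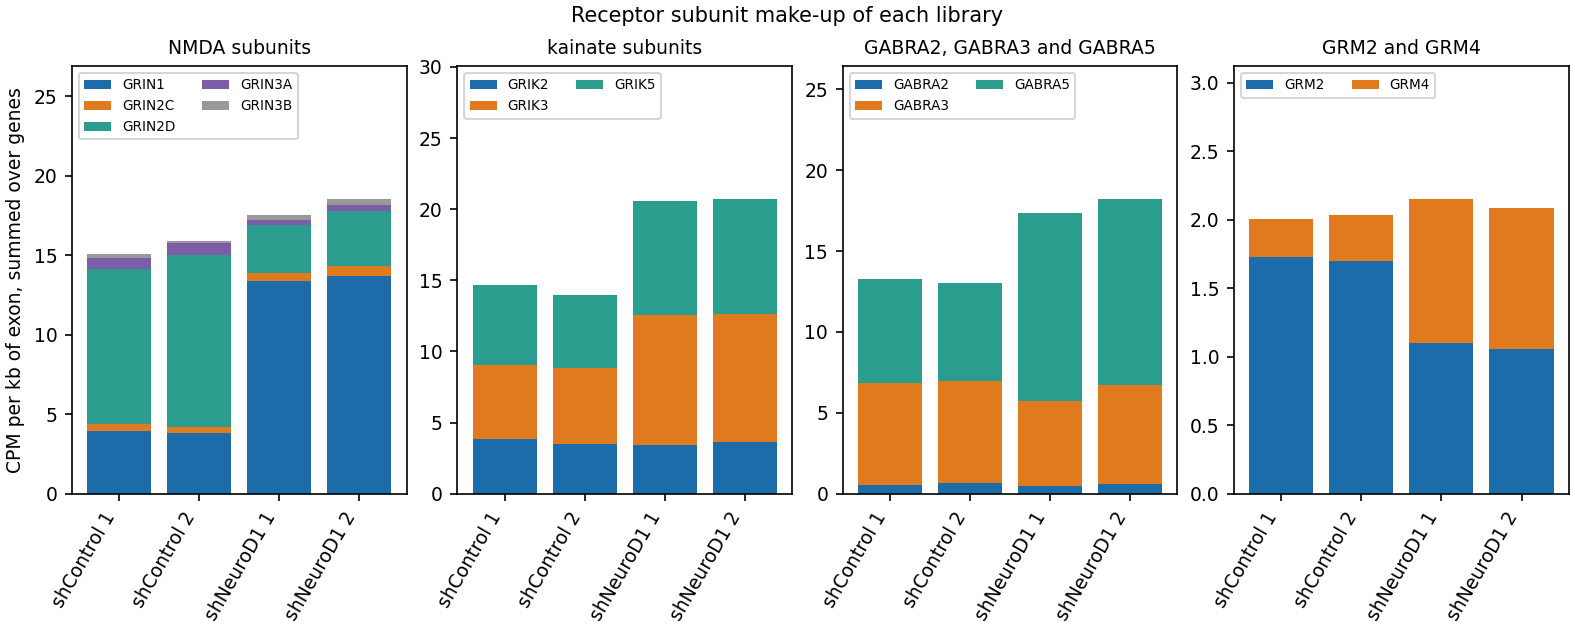
CPM per kb of exon (vertical axis, own scale in each panel) of receptor subunit genes stacked for each of the 4 libraries. GRIN1 is the smaller part of the NMDA stack in both shControl libraries, at 3.95 and 3.80 CPM per kb, and the larger part in both shNeuroD1 libraries, at 13.4 and 13.7, and GRM4, GABRA5 and GRIK3 are taller in their own stacks after knockdown.

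Transcript starts with an FPKM above 0 were listed for 17 of the 41 receptor genes, and any event for 18. GRIN2D had none in any library. The listing was not complete, since GRIK5 had a start in shNeuroD1 replicate 2 only but transcripts without 1 of its exons at 3.22 and 2.81 FPKM in shControl and 4.77 and 6.99 FPKM in shNeuroD1. Summed over starts, GRIN1 stood at 3.02 and 1.902 FPKM in shControl and at 13.5 and 10.3 FPKM in shNeuroD1, GABRA5 at 7.33 and 6.07 against 14.99 and 14.8, GRID1 at 2.04 and 2.74 against 4.68 and 5.74, and GRM2 at 1.26 and 1.03 against 0.643 and 0.697. These values of GRIN1, GABRA5, GRID1 and GRM2 come from the same reads as the counts and went in the same direction. For GRM2 this holds for the starts only. The GRM2 transcript end stood at 1.26 and 1.03 FPKM in shControl and at 1.40 and 0.697 FPKM in shNeuroD1, so the groups overlapped. GABRQ, lower by counts, went the other way, with no start listed in shControl and 0.417 FPKM in shNeuroD1 replicate 1 alone. GABRB2 starts summed to 0.104 and 0.263 FPKM in shControl, and none was listed in shNeuroD1. GABRB2 transcripts that skip an exon stood at 0.0554 and 0.0497 FPKM in shControl and at 0.621 FPKM in shNeuroD1 replicate 2. Its starts are thus understated in that library, and no fall can be read from them.

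More than 1 start was listed for GRIN1. The first start, at chr9:137138348-137139744, stood at 1.43 and 1.19 FPKM in shControl and at 9.71 and 4.66 FPKM in shNeuroD1, and the next, at chr9:137149009-137149109, at 1.34 and 0.586 against 3.10 and 5.22 FPKM. The first start held 47.4% and 62.7% of the GRIN1 start FPKM in shControl and 72.2% and 45.1% in shNeuroD1, so the groups overlapped. GRIK2, which did not pass by counts, had its first listed start at chr6:101393664-101393837. It stood at 2.69 and 2.32 FPKM in shControl, at 0.989 in shNeuroD1 replicate 1 and was not listed in shNeuroD1 replicate 2. The next start, at chr6:101398788-101399392, stood at 0.322 and 0.464 FPKM in shControl and at 0.599 and 1.59 in shNeuroD1. The share of GRIK2 start FPKM from the first start came to 67.1% and 72.3% in the controls and to 38.6% and 0% after knockdown.

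GRM4 starts at chr6:34145088-34145859 (0.552 and 0.575 FPKM) and chr6:34146000-34146087 (0.436 and 0.605 FPKM) were listed in the shNeuroD1 libraries and in neither control. The control starts of GRM4 were few, with 0.174 and 0.0261 FPKM in all, but shControl replicate 2 held GRM4 transcripts that skip an exon at 0.922 FPKM, so its starts are understated. All these FPKM values are descriptions of single libraries with unknown depth per start, and no test was made on them.

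**Figure D5:**
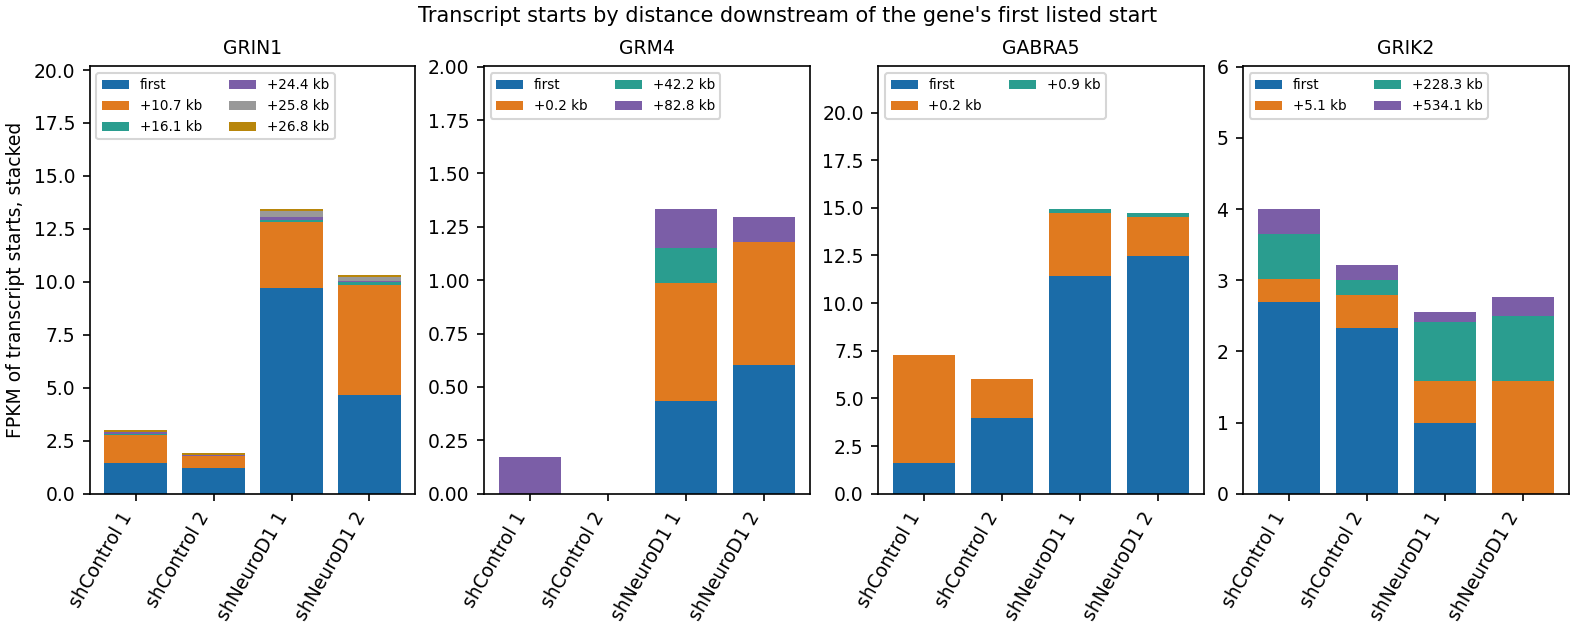
FPKM of transcript starts (vertical axis, own scale in each panel) stacked for each of the 4 libraries, with starts named by their distance downstream of the first listed start of the gene and starts under 0.1 FPKM in every library left out. GRIN1 and GABRA5 stacks are taller in both shNeuroD1 libraries, and the first GRIK2 start stands at 2.69 and 2.32 FPKM in shControl and 0.989 and 0 in shNeuroD1.

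NeuroD1 binds the E-box, for which the letters CAGATG and CAGCTG were searched on both strands in the 250 bases before each start in RefSeq promoters of GRCh38.p14. CAGCTG reads the same on both strands, and no stretch can match both motifs. Promoters were held for 33 of the 41 receptor genes, and 8 genes had the letters. By promoter, 9 of 47 (19.1%) of the receptor genes held them, against 24.3% of all 35116 promoters in the table. Of the 14 genes past the test, 10 could be read, and GRIN1, GABRA5, GRID1 and GRIN2C had no entry. Among those read the letters were held by GABRQ, which was lower in shNeuroD1, and GRM4, which was higher. Their windows are shown because they are the ones with both a called change and the letters, which are in capitals.
GABRQ, chrX:152637775-152637874, plus strand: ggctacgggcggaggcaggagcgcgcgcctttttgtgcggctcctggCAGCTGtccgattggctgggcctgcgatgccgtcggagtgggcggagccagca
GRM4, chr6:34110764-34110857, minus strand: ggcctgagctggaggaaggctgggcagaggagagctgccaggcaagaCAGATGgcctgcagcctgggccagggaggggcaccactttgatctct
The letters lie 73 bases before the start in GABRQ and 47 bases before it in GRM4, and the GRM4 start used there is not 1 of those listed for GRM4 in the FPKM tables. GLRB, GABRA2, GABRG3 and GRIK4, tested but not past the threshold, and GABRR1 and GRM5, not tested, also held the letters. A match in these windows is a description and shows no binding.

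The wider machinery was read from 4 lists of receptor partners, 61 genes in all, of which 47 were tested, 22 higher and 11 lower in shNeuroD1, the latter 7 without shNeuroD1 replicate 1. The share called was 70.2%, beside the 55% of all genes tested. The median log2 fold change of the 47 was 0.23, beside 0.01 over all genes tested. These lists are described by their counts alone and were not tested as sets.

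Glutamate receptor partners were mostly higher, with 12 of 21 tested genes higher, 4 lower and a median log2 fold change of 0.44. In all, 76.2% of them were called, while 26.8% of all genes tested were higher and 28.2% lower. The 3 largest rises were in DLGAP1, CAMK2B and DLGAP2. DLGAP1, a scaffold of the postsynaptic density, had 0 counts in both shControl libraries and 22 and 28 in shNeuroD1, which is at least 8.37-fold higher against a floor of 3 counts per library (edgeR adjusted p 1.7e-07), and the median of the list stayed at 0.44 with DLGAP1 at that bound. DLGAP1 passed the filter on low counts through the shNeuroD1 libraries alone, where it is high. CAMK2B, the beta chain of the kinase that phosphorylates synaptic receptors, went from 3.596 and 3.46 CPM to 19.7 and 18.5 CPM (log2 fold change 2.43, SE 0.15, edgeR adjusted p 3.96e-15). DLGAP2, a relative of DLGAP1, went from 4.61 and 5.23 CPM to 19.9 and 20.2 CPM (log2 fold change 2.02, SE 0.139, edgeR adjusted p 5.41e-14). The largest falls were in the scaffold genes DLG1 (log2 fold change -0.70, edgeR adjusted p 2.42e-11), HOMER1 (-0.42, edgeR adjusted p 0.000102) and TAMALIN (-0.41, edgeR adjusted p 0.0159). NETO1 and NETO2, the auxiliary subunits of kainate receptors, did not pass, and NETO2 was at 149 and 143 CPM in shControl and 145 and 143 CPM in shNeuroD1.

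Of the 12 GABA and glycine receptor partners tested, 6 were higher and 2 lower. This is 66.7% called, beside 55% of all genes tested, where 26.8% were higher and 28.2% lower. SHISA7, an auxiliary subunit of GABA-A receptors, went from 6.85 and 8.06 CPM to 18.8 and 18.8 CPM (log2 fold change 1.33, SE 0.13, edgeR adjusted p 2.06e-10). KCTD16, an auxiliary subunit of GABA-B receptors (log2 fold change 0.73, edgeR adjusted p 0.000705), and NLGN2, the neuroligin of inhibitory synapses (0.48, edgeR adjusted p 5.78e-10), also rose. KCTD8 (-1.01, edgeR adjusted p 0.0168) and KCTD12 (-0.47, edgeR adjusted p 9.11e-09), from the same auxiliary family as KCTD16, were lower. GPHN, the gene of the anchor protein gephyrin, was at 33.8 and 33.3 CPM in shControl and 35.1 and 35.1 CPM in shNeuroD1 and did not pass (edgeR adjusted p 0.495). Of the GABA-B receptor genes, GABBR1 rose by 0.28 on the log2 scale with an SE of 0.0661 (edgeR adjusted p 0.000556). GABBR2, without which GABA-B receptors do not signal, had only 9 and 10 counts in the controls against 18 and 12 after knockdown. It did not pass, and it entered the test only through the shNeuroD1 libraries.

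The genes that make and clear the transmitters split evenly, with 4 higher, 4 lower and 4 not passed among the 12 tested of 22. This is 66.7% called, beside 55% of all genes tested, which also split nearly evenly. GLS2, a glutaminase, had 6 and 6 counts in the controls against 43 and 49 after knockdown (log2 fold change 2.92, SE 0.406, edgeR adjusted p 2.67e-07). GLS2 too entered the test only through the shNeuroD1 libraries. SLC1A7, a glutamate transporter, rose by 2.40 (SE 0.27, edgeR adjusted p 4.57e-09), and ABAT, which breaks down GABA, by 1.26 (SE 0.0955, edgeR adjusted p 6.66e-13) on the log2 scale. SLC17A7, the vesicular glutamate transporter VGLUT1, went from 5.36 and 5.23 CPM to 1.77 and 1.904 CPM (log2 fold change -1.52, SE 0.24, edgeR adjusted p 2.47e-06). SLC6A9, a glycine transporter (-1.39, edgeR adjusted p 8.29e-07), and SLC6A11, a GABA transporter (-0.93, edgeR adjusted p 0.0017), were lower as well. The GABA-synthesizing enzyme genes were at or near 0, with 2 to 7 counts of GAD1 and 0 of GAD2 in each, and the vesicular GABA transporter gene SLC32A1 had 0. Of the chloride transporters, SLC12A2 (NKCC1), which loads chloride into the cell, was at 26.1 and 28.5 CPM in shControl and 22.8 and 23.5 CPM in shNeuroD1 (log2 fold change -0.24, SE 0.0897, edgeR adjusted p 0.0247). SLC12A5 (KCC2), which extrudes it, was at 3.73 and 3.46 CPM against 4.08 and 4.33 CPM and did not pass (edgeR adjusted p 0.394).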

How the data were processed

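RNAseq was carried out on polyA RNA of 2 shControl and 2 shNeuroD1 libraries, grouped by sample title. Raw read counts of 60612 Ensembl genes were deposited by the authors in a single table. The submitters' processing notes name cutadapt 1.9.1, HISAT2 2.0.1, HTSeq 0.6.1, DESeq2 and the build hg38. The use of strand is not given in the sources used here. For each library the authors deposited a second table, in FPKM, of transcript starts, ends and splicing events above 0, and the tool behind them is not given in the sources used here. Columns of the authors' own comparison were not used. 0% of counts lay in rows without a gene.

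R 4.3.3 and edgeR 4.0.16 were used for the counts. After filterByExpr (minimum count 10) and TMM scaling, the quasi-likelihood F test compared the groups, with Benjamini-Hochberg adjustment over 17537 genes and a threshold of 0.05. The SE of a log2 fold change was derived from this test, as its absolute value divided by the square root of the F statistic. Changes beyond 1 on the log2 scale were counted as over 2-fold. The fit was tested on simulated data. Replicates of a group differed by more than sampling noise (chi-square per degree of freedom 2.53 in shControl and 1.56 in shNeuroD1) and were kept apart. Symbols were found for 60401 gene IDs, and coordinates and exon lengths are those of GENCODE release 29. Promoters came from RefSeq. Percent inclusion of an exon is included over included plus skipped FPKM.

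Of the 46 receptor genes that met the rule, 5 are not reported here, nor are 2 markers of the Schwann cell list, and sums and shares of whole families that would hold them were not computed. The fits were made on the whole table. The receptor genes, partner lists and tests were chosen with earlier results of these data known. The genes named are NEUROD1, every receptor gene reported, the 3 largest falls and rises past the threshold in each partner list, and GPHN, GABBR1, GABBR2, NETO1, NETO2, GAD1, GAD2, SLC32A1, SLC12A2 and SLC12A5. Alternatives were DESeq2 1.42.0, other scalings and filters, the replicate number as a block, limma 3.58.1 on log2(FPKM + 1) and log2(FPKM + 0.1), and fits without each library in turn. FPKM of a gene was the sum over its starts (mean 1 FPKM or more). FPKM fits omit NEUROD1, which the event tables merge with CERKL. Figures were drawn with matplotlib 3.10.9.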

Additional observations from a re-analysis of the deposited data

How the results depend on the processing

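Of 142 values of single receptor genes under other settings that used all libraries, 133 had the same direction and call, 8 no longer passed and 1 reversed. The reversed value was GRIK2, at 0.061 with library size alone against -0.05. Limma on log2(FPKM + 1) covered 7 receptor genes and 32 partner genes, since a mean of 1 FPKM or more over starts was required. GRID1 and GRIK3 no longer passed in it. It called 2 receptor genes higher, 2 of them by over 2-fold, and 0 lower, and 2 partner genes higher and 0 lower. At an unadjusted p under 0.05 it had 4 and 0 receptor genes and 10 and 3 partner genes higher and lower. Over all genes it called only 524 of 10084, against 9637 of 17537 in the main edgeR fit. The adjusted calls in these lists were equally many with log2(FPKM + 0.1), where 463 of all 10084 genes were called. The median log2 fold change of the receptor genes was 0.877 and 1.1005 in these fits, over 7 genes, and -0.0775 over the 18 with a mean of at least 1 CPM, where fewer genes were tested, against 0.078 over 22.

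Without 1 library at a time, the receptor genes counted higher ranged from 7 to 8 and lower from 5 to 6, those higher by over 2-fold from 4 to 5 and lower from 2 to 4, and partner genes higher from 20 to 22 and lower from 7 to 10. The median of the receptor genes lay between 0.0532 and 0.141, and NEUROD1 between -2.84 and -2.71. In these fits the lone library is assumed to vary like those of the other group. Of 88 single values from them, 3 reversed. GABRA2 ranged from -0.32 to 0.033 without shNeuroD1 replicate 1 and was at 0.014 without shControl replicate 2, and GRIK2 ranged from -0.12 to 0.014 without shControl replicate 1. The cause of these shifts was not tested.

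Deviations of libraries with the same number had a correlation of 0.0158 over the genes tested. As each group gave a single difference between its libraries, this cannot show whether libraries with the same number shared a preparation. The replicate block gave 8 higher and 6 lower receptor genes, as without it, 4 higher and 3 lower by over 2-fold, 22 higher and 11 lower partner genes, a median of 0.0779 and a NEUROD1 change of -2.77.

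The 19 receptor genes not tested had at most 11 counts in a library. Whether depth or a lack of expression kept their counts low was not tested.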

Other observations

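A few genes with names close to those of the receptor genes fell outside the rule. The antisense gene GRID1-AS1 had 7 and 7 counts in the controls against 11 and 8 after knockdown. The antisense genes GABRG3-AS1, GRIK1-AS1, GRM3-AS1 and GRM5-AS1 had at most 3 counts in any library, and the GRM5 pseudogene GRM5P1 had 0.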
